A study of Mus musculus with 19 samples.

Results

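The immediate early genes described here are 10 genes, Fos, Fosb, Jun, Junb, Jund, Egr1, Egr2, Nr4a1, Ier2 and Btg2, out of the 60567 entries of the deposited expression table. Each was found by its symbol, as a single entry carrying no other symbol. The 10 genes were chosen by name with earlier results of these data known: lower levels of Btg2 and Egr1 in APP-SOCS3 than in APP-GFP astrocytes, and higher levels in GFP- cells. Values for those 2 contrasts are therefore given as a description. Counts of genes past a threshold in them describe the values on which the choice rested and test nothing.

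Immediate early genes are transcribed within minutes of a stimulus, without the need for new protein synthesis. Kinase cascades act on factors already bound to their promoters, such as SRF with its ternary complex partners, and CREB. Their transcripts are short-lived. In the brain they are best known as markers of recent neuronal activity, but glial and vascular cells induce them too, and enzymatic dissociation of tissue at warm temperature is a well-known inducer in most cell types. Fos and Fosb encode leucine zipper proteins that pair with Jun, Junb or Jund to form the AP-1 transcription factor. Egr1 and Egr2 encode zinc finger factors that bind GC-rich sites, Nr4a1 an orphan nuclear receptor, Ier2 a small nuclear protein, and Btg2 an anti-proliferative protein that binds the deadenylase complex of mRNA decay.

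RNAseq was performed by the authors on hippocampal cells of 9-month-old male C57bl6 mice, either WT or APP/PS1dE9 transgenic mice (APP), which carry a chimeric mouse/human APP with the Swedish mutations and a human presenilin 1 lacking exon 9. All mice received, at 3–4 months, AAV2/9 vectors with the gfaABC1D promoter, a short form of the Gfap promoter that drives expression in astrocytes. They were given either a GFP vector alone, or separate vectors for SOCS3 (an inhibitor of the JAK-STAT3 pathway) and for GFP injected together, at the same total titer. Cells were dissociated with papain, depleted of myelin with beads and sorted on GFP fluorescence only. GFP+ astrocytes came from 3 groups of mice, with 7 samples for WT-GFP, 4 for APP-GFP and 5 for APP-SOCS3, and the 3 samples of GFP- cells came from WT-GFP mice. The GFP- population is mixed: according to the study it holds microglia, neurons, oligodendrocyte precursor cells and astrocytes that were not infected. Both hippocampi of a mouse were processed separately, and it is not stated which samples share a mouse, so p-values measure the spread between samples only.

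Promoters of 8 of the 10 genes were taken by symbol from RefSeq (GRCm38, the build of the deposited coordinates). Ier2 and Egr1 were left out of the search, so the counts below do not cover them. The 250 bases before each start site were searched on both strands for 10 short sequences bound by factors known for early response genes. TGACG, the core of the cAMP response element, was found before 6 of the 8 genes (Fos, Fosb, Junb, Egr2, Btg2 and Nr4a1) and in 17.8% of 32851 mouse promoters of the same length. The full element TGACGTCA, which contains TGACG on both strands, was found before Btg2 (1.55% of promoters), and a CArG box, the site of SRF, before Egr2 (1.47%). GCGGGGGCG, a site of EGR factors, was found before Fosb and Nr4a1 (2.57%), GGGCGG, a site of Sp1, before 5 genes (32.7%), CCAAT before 4 (33.8%) and TATAAA before Fos (12.4%). The AP-1 site TGACTCA, the EGR site GCGTGGGCG and the STAT-type site TTCNNNGAA were found before none of the 8, and in 4.46%, 0.536% and 7.02% of promoters. None of the 10 sequences was found before Jund, whose RefSeq start (70697739) lies upstream of its GENCODE start (70698949), so that its window may not be the promoter. These are matches of letters, with GCGGGGGCG and GGGCGG able to share bases, and binding was not measured. Sites further than 250 bases from the start were not searched, so a gene without a match here may have one there.

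The last 180 bases before the start site are shown for 4 of the 6 genes with TGACG: Fos, Egr2, Btg2 and Nr4a1. Capitals mark TGACG on either strand and the CArG box. They lie at chr12:85473710-85473889 (plus strand), chr10:67537689-67537868 (plus strand), chr1:134079156-134079335 (minus strand) and chr15:101266666-101266845 (plus strand), each ending at the RefSeq start site nearest to the start of the deposited gene (1 of 5 listed starts for Egr2), and are written 5′ to 3′ along the gene. GENCODE has further starts upstream of 2 of these windows, from 67535475 for Egr2 and from 101254269 for Nr4a1.
Fos: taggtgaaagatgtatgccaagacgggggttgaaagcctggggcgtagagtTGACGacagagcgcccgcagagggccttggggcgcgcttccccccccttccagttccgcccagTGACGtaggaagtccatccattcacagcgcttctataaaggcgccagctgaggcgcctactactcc
Egr2: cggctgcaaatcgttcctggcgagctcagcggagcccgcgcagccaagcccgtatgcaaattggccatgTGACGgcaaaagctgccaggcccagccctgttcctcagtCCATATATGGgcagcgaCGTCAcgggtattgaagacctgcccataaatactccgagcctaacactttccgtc
Btg2: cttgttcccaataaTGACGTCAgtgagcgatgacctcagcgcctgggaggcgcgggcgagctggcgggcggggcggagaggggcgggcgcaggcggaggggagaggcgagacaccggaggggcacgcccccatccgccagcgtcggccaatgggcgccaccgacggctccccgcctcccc
Nr4a1: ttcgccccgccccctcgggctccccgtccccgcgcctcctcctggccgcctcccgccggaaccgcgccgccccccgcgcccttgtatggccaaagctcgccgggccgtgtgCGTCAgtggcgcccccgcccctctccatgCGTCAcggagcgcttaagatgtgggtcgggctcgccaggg

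The samples held 19331876 to 32621917 reads on genes. Values are read counts normalized by the authors with DESeq2, and 1 read was worth 0.756 to 1.18 normalized counts. Socs3, the gene carried by the vector, was at 13296 to 37750 in the 5 APP-SOCS3 samples and at 438 to 1639 in the 11 other GFP+ samples, and at 10320 to 17689 in GFP- cells. The astrocyte genes Aqp4 (the water channel) and Slc1a3 (a glutamate transporter) were at means of 4663 to 5235 and 121148 to 130786 in the 3 GFP+ groups, against 554 and 8791 in GFP- cells. GFP+ samples were not free of other cells' transcripts: the microglial markers Cx3cr1, Csf1r and Tmem119 and the endothelial markers Cldn5, Pecam1 and Flt1 were above 0 in all 16, whereas the neuronal nuclear marker Rbfox3 was at 0 in 4 of them and Pdgfra, a marker of oligodendrocyte precursor cells, in 5. The neuronal gene Snap25 was at means of 130 to 183 in the GFP+ groups and 758 in GFP- cells, the myelin gene Mbp at 1149 to 4378 against 593, and the pericyte receptor Pdgfrb at 1300 to 1360 against 7194. The Mbp mean of 4378 was that of the APP-GFP samples, which ranged from 771.5 to 13780 (SD 6277). In such bulk samples, fewer cells of a type and less RNA per cell cannot be told apart.

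The mean levels of all 10 genes were highest in GFP- cells and second highest in APP-GFP astrocytes. For 8 genes WT-GFP astrocytes came next and APP-SOCS3 astrocytes last. For Jun and Jund the last 2 positions were exchanged, with means that lay within the spread between samples. Per kilobase of exon (union of GENCODE M21 exons), Fos had the highest level of the 10 in every group: 5452 per kb in WT-GFP, 9761 in APP-GFP, 4045 in APP-SOCS3 astrocytes and 53800 in GFP- cells. Second was Junb in the 3 astrocyte groups (3510, 4739 and 2473 per kb) and Jun in GFP- cells (25211 per kb). Fosb and Egr2 were the lowest everywhere, at 11.1 to 60.7 per kb in astrocytes and 842 to 1165 per kb in GFP- cells. Reads were counted by the authors on constitutive regions whose lengths were not given, so the per-kb levels are approximate.

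**Figure D1:**
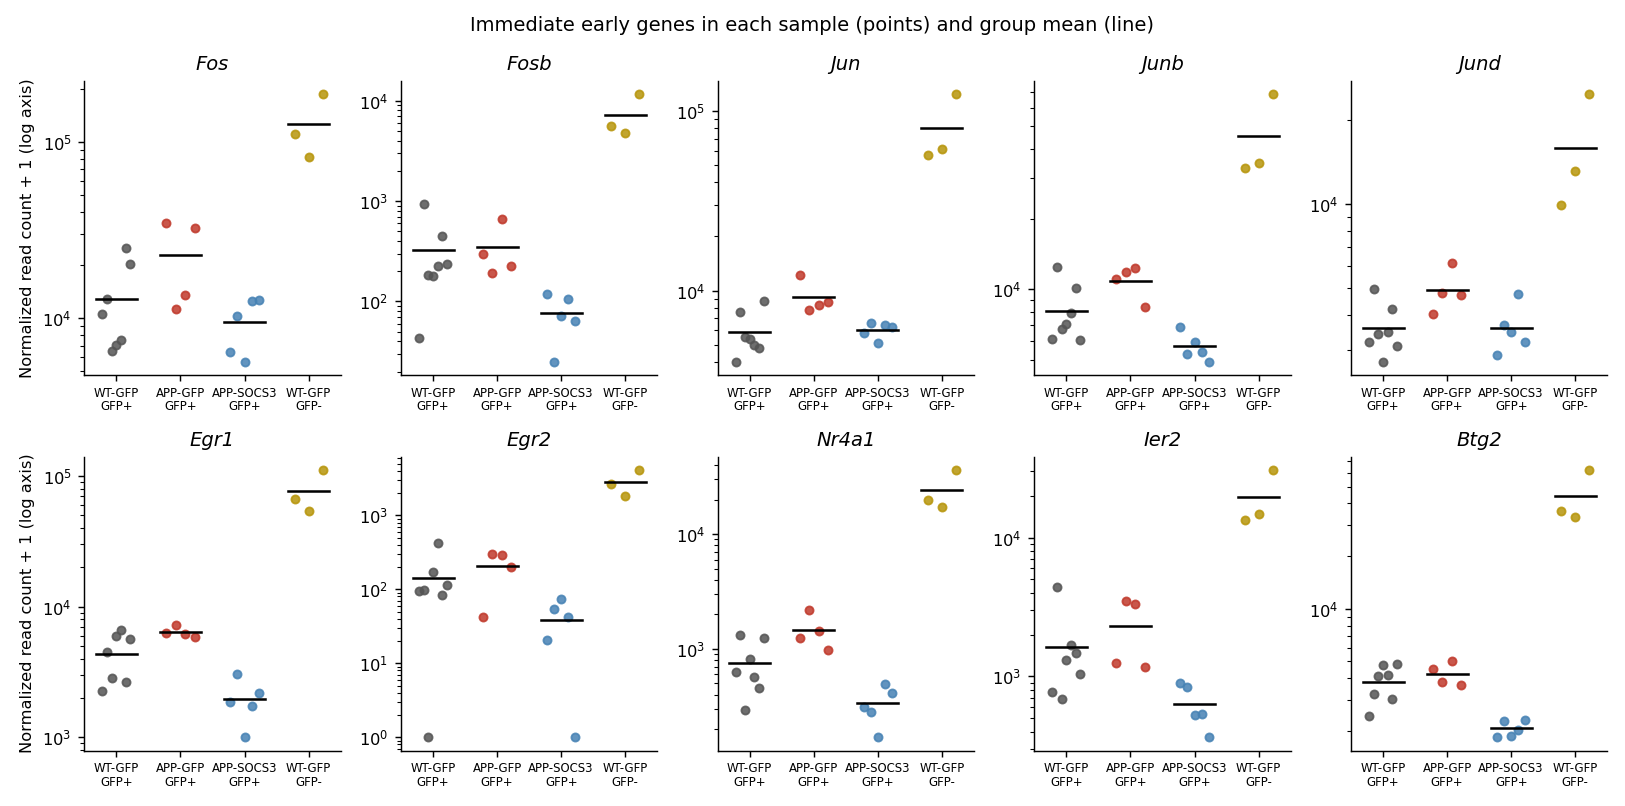
Normalized read counts plus 1 (log axis, 1 panel per gene with its own scale) of the 10 immediate early genes; points are samples and lines are group means for GFP+ astrocytes of WT-GFP (7 samples), APP-GFP (4) and APP-SOCS3 (5) mice and for GFP- cells of WT-GFP mice (3). In every panel all 3 GFP- samples sit above all 16 GFP+ samples, and the points at the bottom of the Egr2 panel are the 2 samples with 0 reads.

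Fos and Fosb differed in level and in pattern. Fos was at 34495, 11259, 13552 and 32526 normalized counts in the 4 APP-GFP samples and at 6399, 10264, 5678, 12578 and 12655 in the 5 APP-SOCS3 samples. In WT-GFP astrocytes it ranged from 6489 to 24995 with a median of 10539, and GFP- cells were at 110764, 82623 and 186228. APP-GFP samples 1 and 4 were above every other GFP+ sample, whereas samples 2 and 3 lay within the ranges of WT-GFP (both) or APP-SOCS3 (sample 2) astrocytes. Fosb, by contrast, separated APP-GFP from APP-SOCS3 samples: it was at 299, 192, 665 and 225 in the former and at 117, 24.2, 70.0, 104 and 62.4 in the latter. WT-GFP samples spanned 42.5 to 943 (median 227), the highest sample being 22.2 times the lowest, and GFP- cells were at 5559, 4715 and 11549. The log2 difference between APP-SOCS3 and APP-GFP astrocytes was −1.17 for Fos (SE 0.378) and −2.18 for Fosb (SE 0.552).

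The 3 Jun genes had smaller differences. Jun was at 12278, 7800.4, 8327 and 8594 in APP-GFP samples and at 5833, 6585, 5123, 6465 and 6260.0 in APP-SOCS3 samples, while WT-GFP samples spanned 4031 to 8773 (median 5375). The 2 APP groups did not overlap for Jun, whereas WT-GFP samples overlapped both. Junb, which can oppose Jun at AP-1 sites, was at 11061.5, 11826, 12350 and 8378 in APP-GFP and at 6887, 5281, 5961, 5413 and 4905 in APP-SOCS3 samples, again without overlap. WT-GFP samples spanned 6081 to 12463 (median 7076). Jund, the member of the family with the steadiest expression in most tissues, was at 4044, 4805, 6162 and 4719 in APP-GFP and at 2868, 3673, 3472, 4766 and 3196 in APP-SOCS3 samples, with a WT-GFP range of 2729 to 4976 (median 3430). For Jund 1 APP-SOCS3 sample lay within the APP-GFP range. APP-SOCS3 minus APP-GFP log2 differences were −0.59 for Jun (SE 0.152), −0.93 for Junb (SE 0.15) and −0.46 for Jund (SE 0.175). GFP- cells were at 56995, 61079 and 123118 for Jun, 32994, 34705 and 68301 for Junb, and 9923, 13136 and 24671 for Jund.

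Egr1 was the gene most alike among APP-GFP samples, at 6316, 7235, 6125 and 5814 (coefficient of variation 9.59%). APP-SOCS3 samples were at 1865, 3016, 995, 1736 and 2173, all below the lowest APP-GFP sample. WT-GFP samples spanned 2253 to 6625 (median 4459) and reached into both ranges, and GFP- cells were at 67285, 53741 and 111400.4. Egr2, a relative best known for its role in myelinating Schwann cells and in microglia and immune cells, was expressed at a far lower level. It was at 41.6, 296, 289 and 199 in APP-GFP samples and at 19.9, 54.0, 74.0, 41.2 and 0 in APP-SOCS3 samples, so that APP-GFP sample 1 fell within the APP-SOCS3 range. WT-GFP samples spanned 0 to 421 (median 95.4) and GFP- cells were at 2676, 1819 and 4091. A sample with 0 reads is compatible with up to 3 reads, or 2.64 normalized counts in APP-SOCS3 sample 5 and 3.53 in WT-GFP sample 3 (counting error only). The log2 difference between APP-SOCS3 and APP-GFP astrocytes was −1.79 for Egr1 (SE 0.262) and −3.00 for Egr2 (SE 1.22, 95% interval −5.70 to −0.31). The latter value depends on the 0 and was −1.91 without APP-SOCS3 sample 5.

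Nr4a1, Ier2 and Btg2 each separated the 2 APP groups. Nr4a1 was at 1232, 2182, 1437 and 985 in APP-GFP samples and at 309, 284, 169, 493 and 413 in APP-SOCS3 samples. WT-GFP samples spanned 293 to 1315 (median 633) and GFP- cells were at 19936, 17234 and 36100.5. Ier2 was at 1249, 3465, 3310.1 and 1159.5 in APP-GFP samples and at 895, 841, 522, 534 and 364 in APP-SOCS3 samples. The pattern of Ier2 within APP-GFP mice was the reverse of that of Fos, samples 2 and 3 being the high ones. WT-GFP samples spanned 687 to 4423 for Ier2 (median 1317), and GFP- cells were at 13413, 14846 and 30591. Btg2 varied little within groups: it was at 4503, 3785, 5048 and 3659 in APP-GFP and at 1839, 2288, 1860.2, 2018 and 2322 in APP-SOCS3 samples. All 7 WT-GFP samples (2430.3 to 4811, median 4126) were also above the highest APP-SOCS3 sample, which held for none of the other 9 genes. GFP- cells were at 36049.6, 33672 and 62107 for Btg2. APP-SOCS3 minus APP-GFP log2 differences were −2.15 for Nr4a1 (SE 0.335), −1.75 for Ier2 (SE 0.397) and −1.03 for Btg2 (SE 0.148).

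All 10 genes were thus lower in mean in APP-SOCS3 than in APP-GFP astrocytes, with a median log2 difference of −1.46 against 0.08 over the 22844 genes fitted. In the limma fit on log2(normalized count + 1), 9 of 10 passed the thresholds used in the study (unadjusted p at most 0.05 and at least 1.5-fold), all but Jund, and 7 of 10 had no overlap between the groups, the exceptions being Fos, Egr2 and Jund. Across all genes, 3.37% passed in this direction and 1.09% had no overlap in this direction. Since the genes were selected on this contrast, no reading is made of these shares. Counts of all genes were 769 lower and 532 higher, or 683 and 710 after scaling to equal upper quartiles.

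Markers of other cells moved with this contrast. Of the 20 microglial markers listed, 19 were lower past the thresholds (median log2 difference −2.0), as were 17 of the 19 endothelial markers fitted (−2.55), 6 of 8 perivascular macrophage markers, 5 of 12 mural cell markers, 4 of 9 markers of oligodendrocyte precursor cells, 3 of 13 neuronal and 1 of 9 oligodendrocyte markers. Of the 15 astrocyte markers 1 was lower, with a list median of 0.04. The summed level of the microglial markers was 22301 to 126284 in APP-GFP samples, 10847 to 21435 in APP-SOCS3 samples and 14302 to 54856.5 in WT-GFP samples. The corresponding ranges for endothelial markers were 16772.5 to 59179, 8573 to 15605 and 11611 to 63902. Expressed relative to GFP- cells, the microglial list stood at a median of 10.2% in APP-GFP sample 1 and 16.9% in sample 4, against 45.0% and 53.5% in samples 2 and 3 and 3.39% to 10.3% in APP-SOCS3 samples. The endothelial list stood at 4.01% and 3.26% in APP-GFP samples 1 and 4, against 0.521% to 1.27% in 4 APP-SOCS3 samples and 4.55% in the other. By these medians the groups overlapped, whereas by summed level all APP-GFP samples were above all APP-SOCS3 samples for both lists, sample 1 being at 22301 for microglial and 17341 for endothelial markers.

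When APP-GFP samples 2 and 3 were both left out, an alternative chosen after seeing the data, Fos was at −1.89 (SE 0.322), Egr1 at −1.72 (SE 0.344), Nr4a1 at −1.81 (SE 0.386), Btg2 at −0.98 (SE 0.176) and Ier2 at −1.01 (SE 0.342). With the mean log2 level of the microglial markers as a covariate, Btg2 was at −1.03 (SE 0.238), Egr1 at −1.72 (SE 0.427), Ier2 at −0.40 (SE 0.333) and Egr2 at −0.25 (SE 1.66). With the endothelial markers as the covariate, Btg2 was at −1.14 (SE 0.237), Egr1 at −1.64 (SE 0.422), Ier2 at −0.41 (SE 0.342) and Egr2 at −0.34 (SE 1.66). Fos was further from 0 in both fits, at −2.46 and −2.21. The part of other cells in the differences between the groups was not tested.

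**Figure D2:**
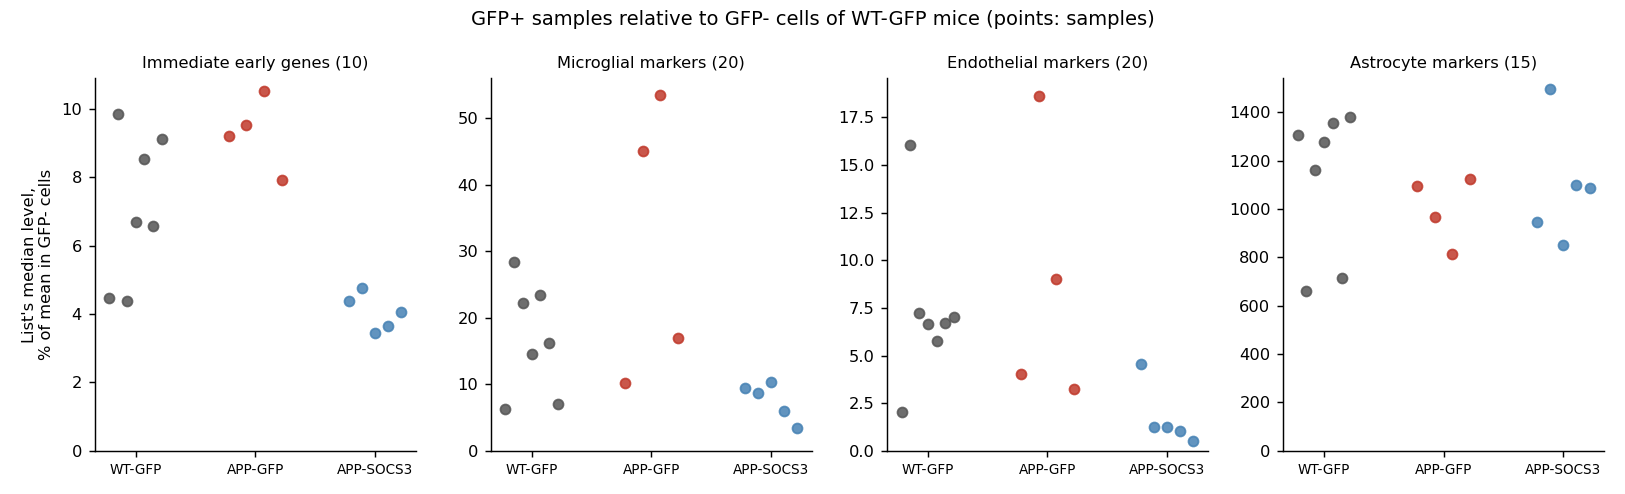
Median level of each gene list in each GFP+ sample, in percent of the gene's mean in GFP- cells, for the 10 immediate early genes, 20 microglial, 20 endothelial and 15 astrocyte markers (points are samples; each panel has its own axis from 0). The 4 APP-GFP samples lie at 7.92% to 10.5% for the immediate early genes and the 5 APP-SOCS3 samples at 3.45% to 4.75%, while for the microglial list APP-GFP samples spread from 10.2% to 53.5%.

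Relative to GFP- cells, the 10 genes stood at unequal levels in astrocytes. In WT-GFP astrocytes Jund was at a median of 21.6% of its mean in GFP- cells and Junb at 15.6%, whereas Nr4a1 was at 2.59% and Fosb at 3.12%. The same 2 genes were the highest and the same 2 among the lowest in APP-SOCS3 astrocytes: Jund at 21.8% and Junb at 11.9%, against 0.962% for Fosb, 1.27% for Nr4a1 and 1.44% for Egr2. The log2 difference between WT-GFP astrocytes and GFP- cells ranged from −2.06 for Jund (SE 0.27) to −5.33 for Egr2 (SE 1.47), with −5.10 for Nr4a1 (SE 0.452), −4.88 for Fosb (SE 0.75), −4.20 for Egr1 (SE 0.376), −3.76 for Ier2 (SE 0.51), −3.73 for Jun (SE 0.285), −3.51 for Btg2 (SE 0.256), −3.40 for Fos (SE 0.437) and −2.45 for Junb (SE 0.279). The Egr2 value depends on the 0 in WT-GFP sample 3 and was −4.32 without that sample, nearer 0 than those of Nr4a1 and Fosb. All 10 passed the thresholds and had no overlap between the groups. Across the 26709 genes fitted, 33.5% passed in this direction and 27.2% had no overlap in this direction. This contrast, too, was known when the genes were chosen, and nothing is read from it. The median over the 10 genes was −3.74 against −1.31 over all genes (8948 lower and 2471 higher), and −2.99 against −0.47 after scaling to equal upper quartiles (5456 lower and 4803 higher). GFP- sample 3 had the highest level of each of the 10 genes, and without it the median was −3.38. All 20 microglial, all 20 endothelial and all 12 mural cell markers were likewise lower in GFP+ astrocytes, and all 15 astrocyte markers higher. With the microglial markers as a covariate Nr4a1 was at −5.16 (SE 1.13), Ier2 at −1.68 (SE 1.05) and Fosb at −1.53 (SE 1.47).

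The first comparison that the choice of genes did not rest on is APP-GFP against WT-GFP, which asks how astrocytes of APP mice differ from those of WT mice. It shares the APP-GFP samples with the contrast of APP-SOCS3 and APP-GFP astrocytes, and the WT-GFP samples with that of GFP+ and GFP- cells. Both contrasts were known at the choice, so its p-values can be too small. All 10 genes had a higher fitted mean in APP-GFP astrocytes, and 3 of 10 passed the thresholds: Nr4a1 (log2 difference 1.05, SE 0.403), Jun (0.68, SE 0.215) and Egr1 (0.66, SE 0.297). Across the 22969 genes fitted, 1.66% passed in this direction. No gene of the 10 had groups without overlap, as 0.231% of all genes did. The exact 2-sided permutation p was 0.0455 for Nr4a1, 0.0273 for Jun and 0.0606 for Egr1 (the smallest that 4 against 7 samples allow is 0.00303). After Benjamini-Hochberg adjustment over all genes, limma's adjusted p was 0.999 for each of the 10, and the lowest over the alternatives was 0.313, for Jun. Jund (0.47, SE 0.186) and Junb (0.46, SE 0.207) were at an unadjusted limma p of 0.026 and 0.0426 but under 1.5-fold. Fos, at 0.85 (SE 0.423, 95% interval −0.07 to 1.76), Egr2 at 1.29 (SE 1.34), Ier2 at 0.58 (SE 0.484), Fosb at 0.42 (SE 0.69) and Btg2 at 0.19 (SE 0.206, 95% interval −0.26 to 0.63) did not pass. The Egr2 value was 0.28 without WT-GFP sample 3, which had 0 reads. The median over the 10 genes was 0.62, against 0.09 over all genes.

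The calls in this comparison were few and unstable. Without APP-GFP sample 1, 1 gene passed, and without any other single sample 2 to 4 did. Leaving out APP-GFP samples 2 and 3 gave 2, Fos (1.57, SE 0.477) and Jun (0.85, SE 0.289). Of 20 microglial markers 3 passed as higher in APP-GFP astrocytes, with a positive sign for all 20 (median 0.89). None of 20 endothelial markers passed (median 0.01), and with the microglial covariate 2 of the 10 genes passed, Fos and Jun.

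**Figure D3:**
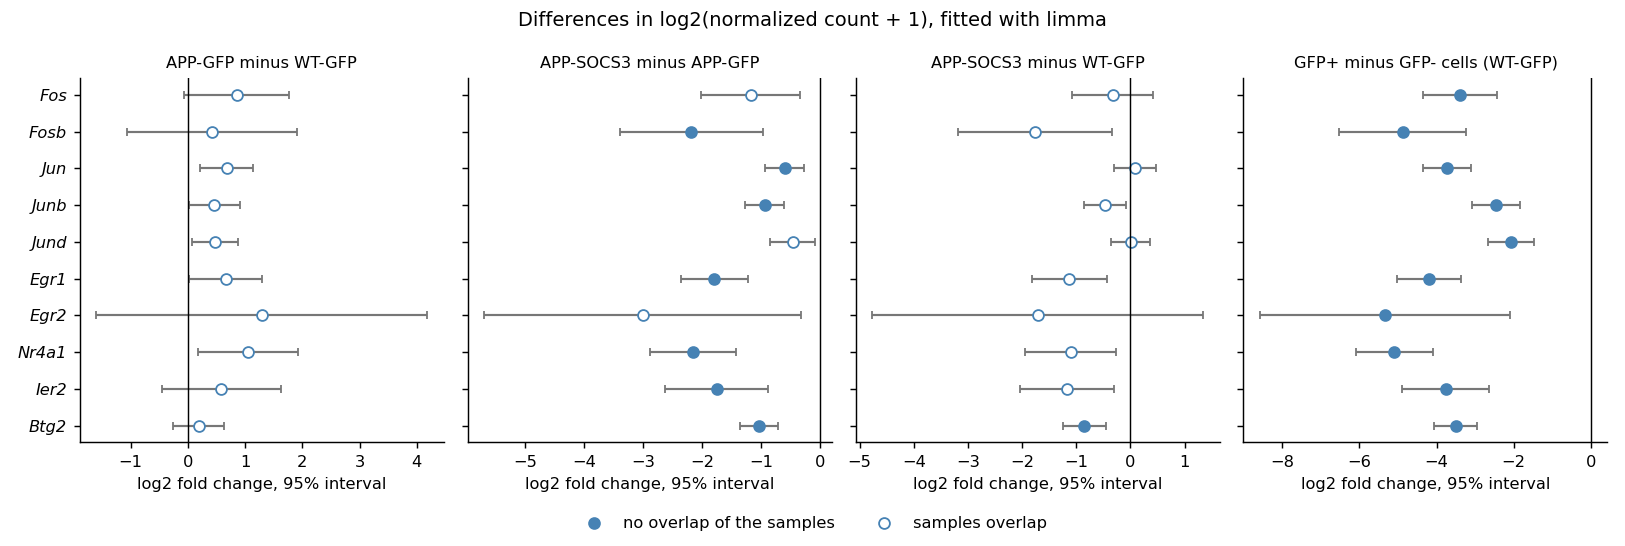
Differences in log2(normalized count + 1) from limma with 95% intervals for the 10 genes in each of the 4 comparisons (panels have their own horizontal axes); filled points mark genes whose samples did not overlap between the groups, open points those that did. Filled points are 7 of 10 for APP-SOCS3 minus APP-GFP, 1 of 10 (Btg2) for APP-SOCS3 minus WT-GFP, none for APP-GFP minus WT-GFP and 10 of 10 for GFP+ minus GFP- cells.

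APP-SOCS3 and WT-GFP astrocytes were compared to ask whether levels in APP mice with SOCS3 lay at those of WT mice. The groups differ in both genotype and vector, and no WT mice received SOCS3, so effects of genotype and vector cannot be told apart here. The APP-SOCS3 samples are shared with the contrast against APP-GFP astrocytes, and the WT-GFP samples with that against GFP- cells. Both contrasts were known when the genes were chosen, so the p-values below, adjusted or not, can be too small. Here 5 of 10 genes were lower past the thresholds, against 2.02% of the 22958 genes fitted: Fosb (log2 difference −1.76, SE 0.662), Ier2 (−1.17, SE 0.406), Egr1 (−1.13, SE 0.322), Nr4a1 (−1.10, SE 0.392) and Btg2 (−0.85, SE 0.181). Their exact 2-sided permutation p-values were 0.0316, 0.0202, 0.0139, 0.0253 and 0.00379, the smallest possible being 0.00126. Only Btg2 had no overlap between the groups, as 0.279% of all genes did in this direction. After Benjamini-Hochberg adjustment in limma, the adjusted p was 0.178 for Btg2 (0.000918 to 1 over the alternatives), 0.406 for Egr1 (0.00892 to 1), 0.69 for Ier2 (0.035 to 1), 0.697 for Nr4a1 (0.0974 to 1) and 0.757 for Fosb (0.0853 to 1). It was under 0.05 for Btg2, Egr1 and Ier2 with sample quality weights, for Btg2 and Egr1 with DESeq2, and for Btg2 without WT-GFP sample 1. Btg2 and Egr1 are the genes already known at the choice to be low in these APP-SOCS3 samples. Their p-values are therefore no independent support. Junb was 1.38-fold lower (−0.47, SE 0.182, exact permutation p = 0.0227) and so under the 1.5-fold threshold. Jun (0.08, 95% interval −0.30 to 0.47) and Jund (0.01, 95% interval −0.36 to 0.37) had differences near 0 whose sign changed between settings, Fos was at −0.33 (95% interval −1.08 to 0.42) and Egr2 at −1.71 (95% interval −4.77 to 1.34). Egr2, with a sample at 0 in each group, ranged from −2.72 to −0.62 leaving out 1 sample.

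Of the microglial markers 12 of 20 were lower in APP-SOCS3 than in WT-GFP astrocytes (median −1.10), and of the endothelial markers 13 of 20 (median −2.32). With the microglial covariate 2 of the 10 genes passed, Btg2 and Nr4a1, and with the endothelial covariate 1, Btg2. Ier2 was at −0.53 and −0.15 in these fits and Fosb at −1.08 and −0.27.

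**Figure D4:**
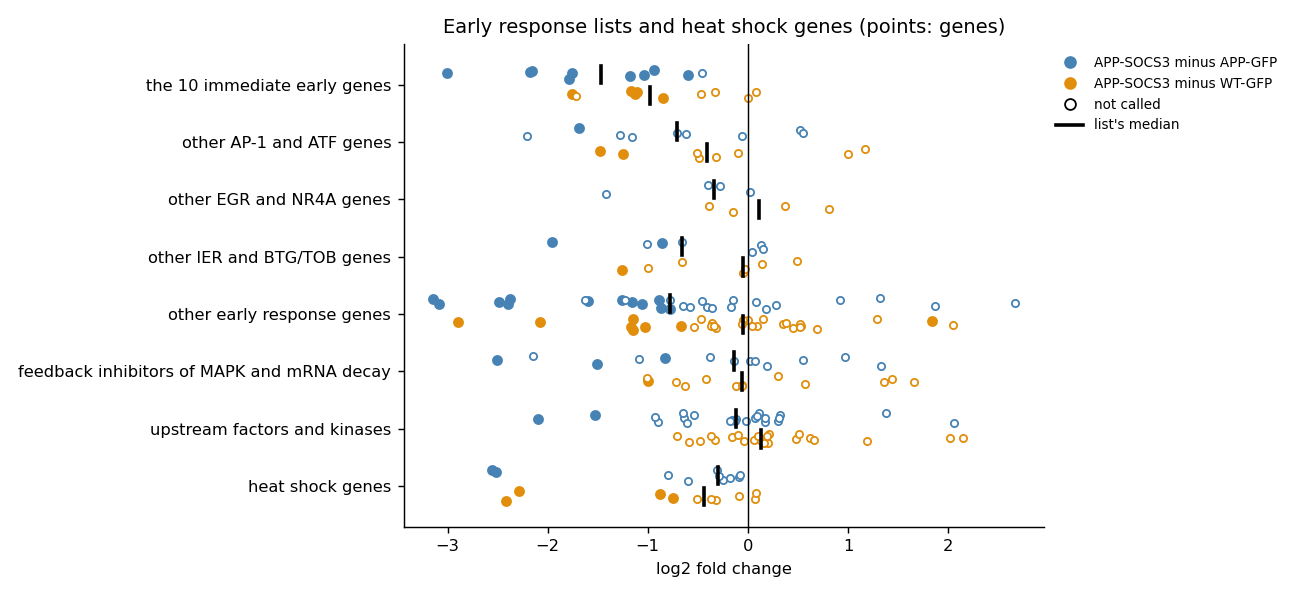
Log2 differences of single genes (points; filled if past the thresholds) and the median (black bar) of the 10 immediate early genes and of 7 further lists, for APP-SOCS3 minus APP-GFP (blue) and APP-SOCS3 minus WT-GFP (orange) astrocytes. The bars of the 10 genes are at −1.46 and −0.98, those of the upstream factors and kinases at −0.12 and 0.13.

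Relatives of the 10 genes and other early response genes were examined in 5 further lists holding 65 genes together. In APP-SOCS3 against APP-GFP astrocytes, 18 of the 62 genes fitted were lower past the thresholds and none higher (median −0.63 against 0.08 over all genes). Across all genes 3.37% were lower past the thresholds. With the microglial or the endothelial covariate 3 of the listed genes passed in each fit, where 333 and 408 of all 22844 genes were lower past the thresholds. Without APP-GFP samples 2 and 3 the listed genes passing were 7, where 551 of all 23109 genes were lower. Of the AP-1 and ATF relatives 1 of 9 passed, Atf3 (a stress-induced factor; −1.69, SE 0.491, from a mean of 2985 to 781), while Fosl1 and Fosl2 were under 140 in mean in every astrocyte group and did not. None of the 4 EGR and NR4A relatives fitted passed. Nr4a2 was at −1.41 (SE 0.933), and Nr4a3 was at 0 in all 16 GFP+ samples. Of 7 IER and BTG/TOB genes 2 passed, Ier3 (−1.96, SE 0.538) and Ier5 (−0.86, SE 0.318). Btg1 and Tob1, relatives of Btg2, were at 0.04 (SE 0.135) and 0.14 (SE 0.137), with means of 6441 and 6696 for Btg1 in APP-GFP and APP-SOCS3 astrocytes.

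Of 29 other early response genes fitted 12 passed in this contrast, among them Cebpb (a leucine zipper factor of inflammatory responses; −1.59, SE 0.382), Klf2 (a shear stress factor of endothelial cells; −2.38, SE 0.611) and Ppp1r15a (a phosphatase subunit of the integrated stress response; −0.89, SE 0.241). Of 13 feedback inhibitors of MAPK signalling and mRNA decay factors 3 passed, with Zfp36, whose protein destabilizes AU-rich mRNAs including those of early response genes, falling from 2546.5 ± 880 to 866 ± 146 (SD, n = 4 and n = 5; −1.50, SE 0.244) without overlap of the groups. Of 23 upstream factors and kinases, such as SRF, CREB and their kinases, 2 were lower, with a list median of −0.12.

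Heat shock genes, induced by heat and other protein stress, also moved with these contrasts. All 10 entries had a lower mean in APP-SOCS3 than in APP-GFP astrocytes (median −0.30), and 2 passed the thresholds: the shared entry of Hspa1a and Hspa1b (−2.55, SE 0.521, from a mean of 5897 to 878, without overlap) and Hspb1 (−2.52, SE 0.63, from 1189.7 to 184). Against WT-GFP astrocytes 4 of 10 were lower past the thresholds (median −0.44), with the entry of Hspa1a and Hspa1b at −2.29 (SE 0.441), Hspb1 at −2.41 (SE 0.595), Hsph1 at −0.88 (SE 0.337) and Dnajb1 at −0.75 (SE 0.304). The summed level of the list was 72372 to 109648 in APP-GFP, 52535 to 78666 in APP-SOCS3 and 69001 to 111823 in WT-GFP samples, and its part in the result was not tested.

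In the other comparisons the lists behaved less uniformly. Between APP-GFP and WT-GFP astrocytes 4 of 62 genes were higher past the thresholds, against 1.66% of all genes: Cebpd (0.87, SE 0.285), Rhob (0.87, SE 0.349), Arc and Sik1. Arc, a synaptic gene induced by neuronal activity, was at 162 to 399 in APP-GFP samples and at 0 in 4 of 7 WT-GFP samples, and Sik1 was at 20.9 to 156.5 against 0 in 3 of 7, so that no fold is given for these 2. In APP-SOCS3 against WT-GFP astrocytes, 11 of 61 were lower, against 2.02% of all genes, and 1, the clock gene Per1 (1.84, SE 0.698), higher. The 5 with the smallest p were Ctgf (a matrix-associated growth factor; −2.90, SE 0.568), Klf2 (−2.08, SE 0.594), Klf6 (−1.02, SE 0.299), Cebpb (−1.16, SE 0.341) and Zfp36 (−0.99, SE 0.314). In that fit limma's adjusted p was 0.12 for Ctgf and higher for the others. The median of the 61 was −0.06 against 0.19 over all genes, whereas that of the 10 genes was −0.98. Between GFP+ and GFP- cells 56 of 65 were lower, against 33.5% of all genes, and 1 higher (median −3.21). The lower ones were led by Sgk1 (−4.16, SE 0.35), Plk2 (−3.49, SE 0.3), Dusp1 (−2.92, SE 0.251), Mcl1 (−3.21, SE 0.284) and Ier3 (−4.40, SE 0.399).

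Likeness was measured over the 16 GFP+ samples as Pearson's r between a gene's log2 level and the mean z-score of the 10 genes, for 12166 genes with a mean of at least 100. As the samples belong to 3 groups, differences between groups enter r, and no p is given. Each of the 10 genes is part of the mean score it was compared with, which raises its own r. Among the 10 genes r was highest for Nr4a1 (0.89), Junb (0.87), Ier2 (0.85) and Egr1 (0.84) and lowest for Fos (0.60) and Egr2 (0.58). Of the 10 other entries most like them, 3 carry no gene symbol (r of 0.90, 0.82 and 0.81), the first being above every one of the 10 genes. The named ones were Zfp36 (0.88), Hspa1a with Hspa1b (inducible heat shock proteins that share 1 entry, so that their reads cannot be told apart; 0.83), Ucp2 (a mitochondrial carrier; 0.83), Stab1 (a scavenger receptor of macrophages; 0.81), Cebpb (0.81), Ier3 (0.81) and Myo1h (an unconventional myosin; 0.80). With the group means removed r was 0.74 for Zfp36, 0.71 for Hspa1a with Hspa1b, 0.75 for Stab1 and 0.80 for Myo1h, against 0.26 for Btg2 and 0.31 for Fos.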

How the data were processed

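RNAseq read counts per gene were made by the authors from paired reads of SMARTer and Nextera XT libraries (PCR-amplified, without molecular identifiers), aligned to mm10 with STAR 2.4.0 and counted on constitutive regions of FAST DB genes. The strand setting of counting was not given in the sources used here. The deposited signal is the count normalized with DESeq2 by the authors across samples; 100% of values were whole multiples of 1 read (tolerance 0.01 of a read), so that reads were recovered (in APP-GFP sample 3 and APP-SOCS3 sample 3, where 1 read was worth 0.989 and 1, close to the deposited scale itself, this is less telling), at 19331876 to 32621917 per sample. No pair of samples held identical values.

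Genes with a mean of at least 10 in either group were tested with limma 3.58.1 (trend) on log2(normalized count + 1), using only the groups compared. Fold changes are on this scale, which understates those of low genes, but a single sample at 0, as for Egr2, can move them strongly. Calls required at least 1.5-fold and p of 0.05 or less before adjustment, the thresholds of the study, with p-values adjusted by Benjamini-Hochberg over all genes fitted. Exact 2-sided permutation tests on log2 levels were run for the 10 genes in the comparisons on which they were not chosen. Both groups of each of these comparisons also belong to a contrast known at the choice, so the p-values can be too small. Values are mean ± SD over samples.

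The 10 genes, the marker lists and the other early response lists were chosen with earlier results of these data known. Genes named besides the 10 are Socs3, defining cell type markers, family partners, up to 5 called genes of the early response lists per comparison with the smallest p, and the 10 entries most like the 10 genes. Atf3, Ier5 and Btg1 are family partners, and Per1 was named after its value was seen, as the 1 gene called higher.

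Alternatives were pseudocounts of 0.1 and 10, a mean level of at least 100 or no minimum, equal totals and equal upper quartiles, all samples in 1 fit, sample quality weights, edgeR 4.0.16 and DESeq2 1.42.0 on the recovered reads, a 2-fold threshold, Benjamini-Hochberg calls, replicate number as a block, a covariate for microglial or endothelial markers, and omission of single samples. Leaving out APP-GFP samples 2 and 3 together was added after the data were seen. Promoters came from RefSeq (GRCm38.p6), exon lengths from GENCODE M21. Scripts used Python 3.11.15 and R 4.3.3.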

Additional observations from a re-analysis of the deposited data

Results flagged for a closer look

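Of 30 sets of values (10 genes in 3 groups of 4 to 7 samples), 2 held a sample far from the rest by Dixon's criterion, which chance does in about 1 set in 20. Ier2 was at 4423 in WT-GFP sample 2, where the next highest WT-GFP sample was at 1673. The same sample had the highest level of Fosb, Junb, Jund and Nr4a1 among WT-GFP samples. By list median and by summed level it also had the highest microglial and endothelial marker levels of that group (28.4% of GFP- cells for the microglial list). Without it the log2 difference of Ier2 between APP-GFP and WT-GFP astrocytes was 0.87 and passed the thresholds. Egr2 was at 421 in WT-GFP sample 5, where the next highest sample was at 169. By mean log2 level, the measure used as the covariate, the microglial list was highest among WT-GFP samples in sample 5 (10.8, against 10.4 in sample 2).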

How the results depend on the processing

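Of the 10 genes, the number called between APP-GFP and WT-GFP astrocytes was 3, and 0 with Benjamini-Hochberg calls in limma, 1 at 2-fold and 1 to 4 leaving out 1 sample. Between APP-SOCS3 and APP-GFP astrocytes it was 9, and 0 with Benjamini-Hochberg calls in limma, 5 with the endothelial covariate and 8 to 9 leaving out 1 sample. Between APP-SOCS3 and WT-GFP astrocytes it was 5, and 0 with Benjamini-Hochberg calls in limma (Btg2, Egr1 and Ier2 passed with sample weights, Btg2 and Egr1 with DESeq2), 2 and 1 with the microglial and endothelial covariates and 4 to 6 leaving out 1 sample. Between GFP+ and GFP- cells it was 10, 6 with the microglial covariate and 10 leaving out any sample. Deviations from group means had correlations of −0.177 to 0.242 over 16 pairs of samples with the same replicate number. For APP-GFP against WT-GFP 3 of 4 pairs were above 0.1. This check cannot decide whether samples shared a batch or a mouse. With the replicate number as a block the counts were 4, 9, 4 and 10. The other alternatives gave counts within 1.5 times these. Of the log2 differences of the 10 genes, 7 of 420 changed sign leaving out 1 sample and 6 of 620 under the other alternatives. Between APP-GFP and WT-GFP these were Fosb (−0.18) and Ier2 (−0.043) with the microglial covariate, Egr2 (−0.50) with sample weights and Ier2 (−0.16) without APP-GFP samples 2 and 3. Between APP-SOCS3 and WT-GFP they were Fos (0.068) with the block, Jund (−0.0012) with DESeq2, and Jund (−0.10 to 0.089) and Jun (−0.00057 to 0.19) leaving out 1 sample. All genes called numbered 513, 1301, 1197 and 11419 in the 4 comparisons. With a mean level of at least 100 these were 123, 650, 441 and 6709, and with Benjamini-Hochberg calls in limma 1, 1 and 7 in the first 3. After that adjustment DESeq2 called 24, 205 and 181 and edgeR 1, 0 and 1, and for the third limma called 199 with weights and 39 without WT-GFP sample 1. They were 817 without a minimum level, 991 with all samples fitted and 1100 with weights for the first, 540 and 582 with the microglial and endothelial covariates for the second, 2589 with weights for the third, and 3749 and 5394 with the covariates for the last. The early response lists gave 4, 18, 12 and 57 calls. These became 0 with Benjamini-Hochberg calls in the first 3, 2 with edgeR and 2 at 2-fold for the first, 3 with either covariate and 7 without APP-GFP samples 2 and 3 for the second, 2 and 7 with the covariates for the third, and 19 and 24 for the last. The cause of these changes was not tested. Groups of 3 to 7 samples limit precision, and Egr2 and Fosb rest on few reads in astrocytes.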
